A study of Mus musculus with 12 samples.

Results

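The comparison described here is the first response of mouse macrophages to LPS: 3 arrays of bone marrow-derived macrophages exposed to LPS once, for 4 h, were set against 3 arrays of macrophages left untreated. The members are these 6 of the 12 arrays of the series, taken by their titles (acute response to LPS and untreated, numbered 1 to 3) and paired by number, and every measured gene was tested. Both groups were C57BL/6 macrophages grown from the marrow of female mice of 6 to 8 weeks and differentiated for 7 days in medium conditioned by L929 fibroblasts, a source of the growth factor CSF-1. The labels give no transgene or deletion for either group. The other 6 arrays came from cells that met LPS a second time after a short rest (tolerant) or a long rest (recovered). They entered the estimate of the spread, the filter on probes and the choice of 1 probe per gene, but not the differences. The 3 numbers stand for independent experiments, but the labels do not say whether each used other animals or whether marrow was pooled, nor give the dose or strain of the LPS, so p-values measure the spread between these arrays, which may in part be technical. RNA (200 ng) was labelled with Cy3 and hybridised to single-colour Agilent arrays.

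LPS, the outer membrane lipid of Gram-negative bacteria, is bound by CD14 and handed to the receptor complex of TLR4 and MD-2 (Ly96). From the cell surface the complex signals through the adaptors TIRAP and MyD88 to NF-kB and to MAP kinases that act on AP-1, and from endosomes through TRAM and TRIF to TBK1 and the transcription factor IRF3, which switches on the gene of interferon beta. Secreted interferon beta then acts back on the macrophages through IFNAR and JAK kinases to STAT2 and IRF9, which bind a sequence called the interferon-stimulated response element (ISRE).

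Values below are log2 scaled intensities, that is, the processed intensity of a probe after each array was set to a common 75th percentile. A difference of 1 on this scale is 2-fold, and levels of different probes are not comparable with each other. Each difference is acute minus untreated, with its standard error and the Benjamini-Hochberg adjusted p of limma's test, and genes with an adjusted p under 0.05 count as called. On the 6 arrays, 48.5% to 55.0% of spots were well above background and 0 were saturated. Correlations between arrays of a group were 0.981 to 0.994 in the acute group and 0.980 to 0.991 in the untreated group. The 3 pairs followed the slides: arrays of 1 number shared a slide and a scan day, and each slide held both groups. All 8 macrophage markers listed were well above background on all 6 arrays, and the CSF-1 receptor gene Csf1r averaged 17.22 ± 0.04 in acute and 17.29 ± 0.15 in untreated macrophages (SD, n = 3 each), a difference of -0.07 ± 0.12 that was not called (adjusted p = 0.67), and that was called lower after quantile normalization (-0.35). Markers of neutrophils were mostly not among the genes kept for the test (4 of 11 tested; their summed level was 12.77 to 13.11 on acute and 12.72 to 13.14 on untreated arrays), as were those of lymphocytes (5 of 14; 13.11 to 13.32 on acute and 13.23 to 13.36 on untreated arrays) and of red cells and platelets (5 of 10; 13.06 to 14.03 on acute and 12.70 to 13.74 on untreated arrays). Of the tested neutrophil markers 2 were called higher and 0 lower, with changes from -0.04 to 0.86. Of the lymphocyte markers 1 was lower and 0 higher (-1.08 to 0.14), as with red cells and platelets (-1.18 to 0.39). Without the replicate block 1 neutrophil marker was higher and 0 lymphocyte markers were lower. Such sums follow their brightest members and can hide these changes. In such bulk RNA, fewer cells of a type and less RNA per cell cannot be told apart.

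Sequence upstream of the genes with the greatest changes is shown first, because NF-kB and ISRE matches in it are taken up again with the values. Each line gives 270 bases of the coding strand, from 250 bases before the start of the transcript to 20 after it (RefSeq, GRCm38.p6). Capitals mark matches, on either strand, to the NF-kB consensus or to the ISRE core GAAANNGAAA. The genes were picked by fitted change among those the text could name: Ifnb1, Il6 and Cxcl10 among rises with an NF-kB match, Cxcl10, Gbp5 and Ifit1bl1 among rises with an ISRE match, and Bmf and Frat1 among falls. For genes below background in 1 group (Ifnb1, Ifit1bl1, Bmf and Frat1) the fitted change is not a fold, so this choice is not a ranking by fold.
Ifnb1: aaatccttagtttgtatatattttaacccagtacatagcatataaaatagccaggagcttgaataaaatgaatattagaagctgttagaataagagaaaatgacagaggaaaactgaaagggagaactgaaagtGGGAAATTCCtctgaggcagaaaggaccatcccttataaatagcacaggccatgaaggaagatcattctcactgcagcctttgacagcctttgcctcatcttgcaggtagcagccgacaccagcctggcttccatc
Il6: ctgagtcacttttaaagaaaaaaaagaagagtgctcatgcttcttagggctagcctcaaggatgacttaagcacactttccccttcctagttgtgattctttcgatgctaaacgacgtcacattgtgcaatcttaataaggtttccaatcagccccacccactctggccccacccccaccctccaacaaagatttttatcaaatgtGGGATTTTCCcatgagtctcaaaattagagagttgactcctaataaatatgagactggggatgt
Cxcl10: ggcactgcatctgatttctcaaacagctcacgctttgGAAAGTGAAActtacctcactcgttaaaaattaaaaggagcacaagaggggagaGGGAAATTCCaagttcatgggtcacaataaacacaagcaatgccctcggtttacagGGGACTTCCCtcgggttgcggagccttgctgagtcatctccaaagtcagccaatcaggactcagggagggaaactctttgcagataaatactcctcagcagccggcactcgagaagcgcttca
Gbp5: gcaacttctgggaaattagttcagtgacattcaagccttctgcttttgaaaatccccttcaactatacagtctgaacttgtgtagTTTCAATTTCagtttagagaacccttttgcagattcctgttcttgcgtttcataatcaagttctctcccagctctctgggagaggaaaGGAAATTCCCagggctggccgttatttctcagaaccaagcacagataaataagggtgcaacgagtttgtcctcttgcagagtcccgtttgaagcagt
Ifit1bl1: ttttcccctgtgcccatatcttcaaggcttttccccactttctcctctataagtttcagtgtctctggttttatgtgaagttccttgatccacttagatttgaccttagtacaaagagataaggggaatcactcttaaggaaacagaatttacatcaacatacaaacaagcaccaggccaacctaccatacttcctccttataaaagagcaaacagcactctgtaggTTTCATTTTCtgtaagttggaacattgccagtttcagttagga
Bmf: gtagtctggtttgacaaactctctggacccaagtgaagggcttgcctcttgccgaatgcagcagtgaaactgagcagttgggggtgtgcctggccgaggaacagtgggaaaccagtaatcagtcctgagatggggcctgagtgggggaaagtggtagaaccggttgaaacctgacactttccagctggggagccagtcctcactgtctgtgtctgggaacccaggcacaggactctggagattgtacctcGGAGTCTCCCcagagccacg
Frat1: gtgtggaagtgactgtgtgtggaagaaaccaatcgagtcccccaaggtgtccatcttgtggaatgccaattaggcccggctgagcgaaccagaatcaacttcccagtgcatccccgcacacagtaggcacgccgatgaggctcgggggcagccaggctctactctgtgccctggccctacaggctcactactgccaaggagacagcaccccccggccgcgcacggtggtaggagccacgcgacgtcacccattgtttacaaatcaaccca
The first line is Ifnb1 on the minus strand, chr4:88522775-88523044, with 1 NF-kB match that starts at position -116 from the transcript start. Il6 follows on the plus strand at chr5:30012864-30013133, with 1 NF-kB match at -44. Cxcl10, on the minus strand at chr5:92348870-92349139, holds an ISRE match at -213 and NF-kB matches at -159 and -103. In Gbp5, on the plus strand at chr3:142496684-142496953, the ISRE match lies at -165 and the NF-kB match at -77. The window of Ifit1bl1, on the minus strand at chr19:34599408-34599677, has an ISRE match at -23, and 1 of its 2 listed windows is shown. Bmf, on the minus strand at chr2:118544568-118544837, has an NF-kB match at position 1 in the shown window of its 3. Frat1, on the plus strand at chr19:41829720-41829989, holds no match to either in this window.

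At 4 h the macrophages differed from resting cells at a large share of the measured genes, and the greatest changes were rises. Of 20464 genes tested, 8896 were called (43.5%), of which 4327 were higher (21.1% of all tested) and 4569 were lower (22.3%). Counts of list members below are to be read beside these shares. Cytokine, chemokine, antiviral and GTPase genes were 10 of the 12 largest rises measured on all 6 arrays. Among called genes, 882 were at least 4-fold higher and 352 at least 4-fold lower, and 120 were at least 32-fold higher and 2 at least 32-fold lower, by fitted values. The split of calls depended on the scaling: 48.6% of called genes were higher with the 75th percentile, against 37.2% after quantile normalization and 37.8% in the authors' own log2 values, in which the median gene stood at -0.12 and -0.09, against 0.02 here. Single genes could shift by more: Cd74 went from 0.63 here to 0.33 after quantile normalization. Changes of about the size of these shifts or smaller have no settled direction.

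**Figure D1:**
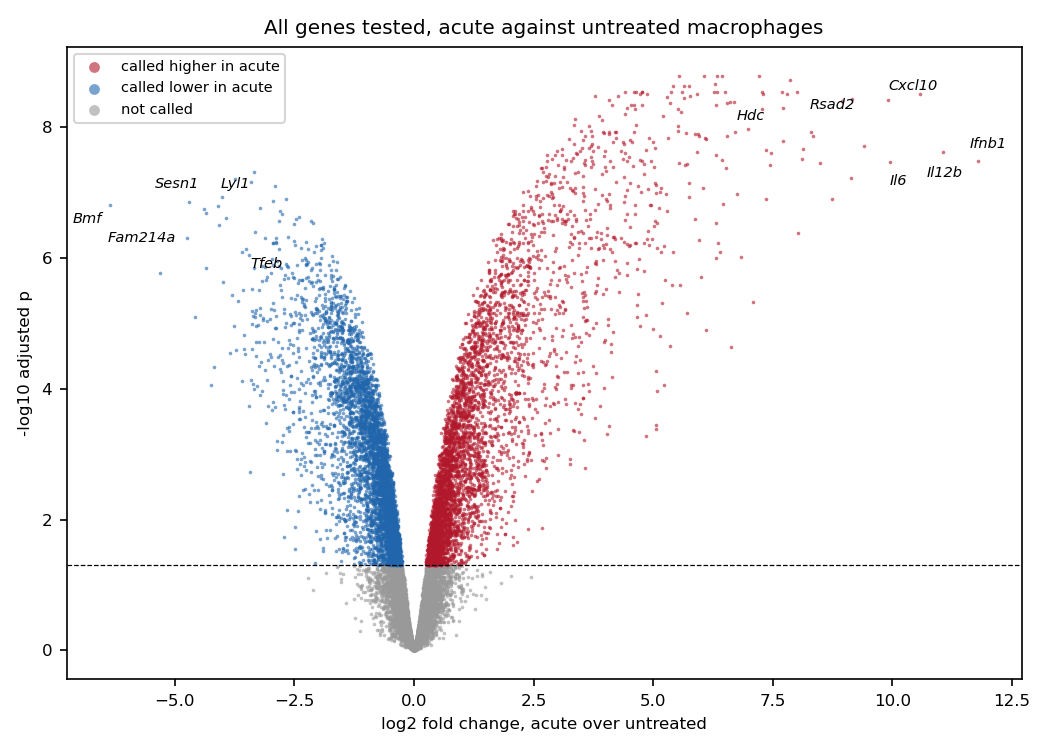
Log2 fold change of acute over untreated macrophages (x axis) against -log10 of the adjusted p (y axis) for the 20464 genes tested, 1 point per gene, coloured by call; the dashed line is an adjusted p of 0.05. The right arm, with 4327 genes called higher, reaches farther from 0 than the left arm, with 4569 called lower; values of genes that were not well above background in 1 group are fitted values and not folds.

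The 3 experiments gave the same direction for most genes tested. All 3 acute minus untreated differences had 1 sign in 14300 genes (69.9%), and in 8879 of the 8896 called genes (99.8%). Calls were made from these same differences, so agreement among called genes follows in large part from the calling. The counts and medians of called genes are therefore no separate test of agreement. A change of over 2-fold in every experiment was seen upward in 1600 genes, of which 1595 were called, and downward in 1158 genes, of which 1153 were called. Of the 277 genes called at least 8-fold higher and measured on all 6 arrays, the median change was 4.08, 3.97 and 3.99 in experiments 1, 2 and 3. For the 35 genes called at least 8-fold lower, these medians were -3.13, -3.20 and -3.66.

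Inflammatory cytokine genes rose together, and each of the 22 tested members of the inflammatory cytokine list was called higher (median change 4.36, or 4.32 with genes below background at their bound; 0.02 over all tested genes). Il6, which encodes the pyrogenic cytokine IL-6, had levels of 16.66, 16.20 and 15.81 on acute arrays, against 7.85, 5.75 and 5.24 on untreated arrays. Even the lowest acute array lay far above the highest untreated one, a rise of 9.95 ± 0.34 (986-fold, adjusted p = 3.4e-08). Il12b encodes the p40 chain shared by IL-12 and IL-23. It read 13.11, 13.23 and 13.05 on acute arrays, against 2.04, 2.17 and 2.00 on untreated arrays, none of which was well above background. Il12b was therefore at least 618-fold higher (adjusted p = 2.3e-08), where such a bound sets the acute mean against the lowest signal well above background on each untreated array, or the probe's own where that was higher. Il33, an alarmin, was not well above background on any untreated array either, and was at least 32.4-fold higher with acute levels of 10.24, 9.35 and 7.04, which differed widely between experiments. Lhx2, a homeobox factor in none of the lists, was at least 398-fold higher. Tnfsf10, the gene of the death ligand TRAIL, rose by 7.45 ± 0.24 and was well above background on all 3 acute and on 2 of 3 untreated arrays. Tnf, Il1b and Il1a, the early pyrogens, rose by 4.75, 6.32 and 4.72, with Il1a well above background on 1 of 3 untreated arrays. Smaller rises were those of Il10, which encodes an anti-inflammatory cytokine (1.65), and of Ebi3, a subunit of IL-27 (0.65), beside 4.80 for the other subunit, Il27.

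Chemokine genes rose as well, with 17 of 20 tested members called higher and 0 lower (median change 4.00). Cxcl10, whose product draws activated T cells through CXCR3, had levels of 19.04, 18.84 and 18.67 on acute arrays, against 8.66, 8.76 and 9.38 on untreated arrays. The groups did not overlap and the rise was 9.91 ± 0.23 (965-fold, adjusted p = 3.8e-09). Ccl5 (RANTES), which attracts T cells and monocytes, read 18.80, 18.59 and 18.47 on acute arrays, against 10.23, 9.78 and 10.82 on untreated arrays, a rise of 8.35 ± 0.24 (325-fold, adjusted p = 1.4e-08). The neutrophil attractant Cxcl1 stood at 12.60, 13.19 and 14.03 on acute arrays, against 5.08, 6.49 and 7.30 on untreated arrays. Levels of Cxcl1 differed between experiments in both groups, and the paired difference was 6.98 ± 0.19 (127-fold, adjusted p = 1.0e-08); in the authors' values it was 4.73 and missed the threshold (adjusted p = 0.051). Ccl12, a monocyte attractant, rose by 6.71 ± 0.19 (adjusted p = 1.2e-08). Ccl6, Cxcl11 and Cxcl14 were not called, with differences of 0.07, 0.26 and 0.07.

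Receptors for chemotactic ligands had 6 of 11 tested members higher and 2 lower, beside 21.1% higher and 22.3% lower over all tested genes. Ccrl2, an atypical receptor that binds chemerin, rose by 5.11 ± 0.22 (adjusted p = 1.7e-07). The formyl peptide receptor gene Fpr2 and the C5a receptor gene C5ar1 rose by 2.07 and 1.99. Cxcr4, the receptor for CXCL12 that retains leukocytes in marrow, read 7.01, 7.28 and 5.66 on acute arrays, against 9.65, 9.81 and 9.65 on untreated arrays, and was lower by 8.32-fold (log2 -3.06 ± 0.30, adjusted p = 3.6e-05). The fractalkine receptor gene Cx3cr1 was lower too (-1.46).

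**Figure D2:**
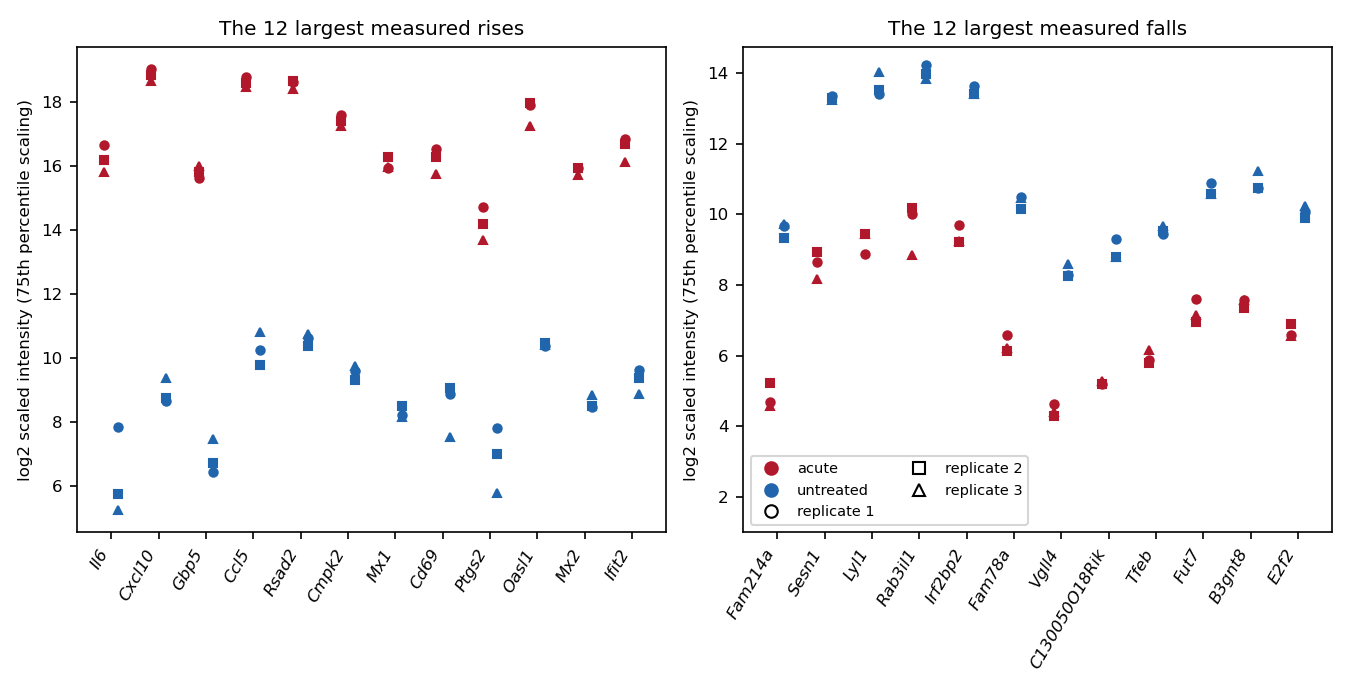
Log2 scaled intensity (y axis) of each acute (red, left of each gene) and untreated (blue, right) array for the 12 largest rises (left panel) and the 12 largest falls (right panel) among genes measured on all 6 arrays, with a symbol for each replicate number. The acute and untreated points do not overlap for any of the 24 genes; Il6 lies between 15.81 and 16.66 on acute arrays and between 5.24 and 7.85 on untreated arrays, and heights are not comparable between genes.

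Among interferon ligands, Ifnb1 stood apart. Its levels were 14.68, 14.46 and 12.50 on acute arrays, against 2.00, 2.22 and 2.03 on untreated arrays, where it was never well above background. Ifnb1 was at least 1036-fold higher (adjusted p = 3.2e-08), and acute array 3 was the lowest of the acute arrays. The interferon alpha genes Ifna5, Ifna2 and Ifna1 rose by 1.48, 1.44 and 1.06, and are near copies whose probes may share signal. Ifng was well above background on 1 acute array alone, so no fold is given. Of the receptor chains, Ifnar1 and Ifngr2 were lower (-0.88 and -0.70) and Ifnar2 was higher (0.29).

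Genes induced by interferon rose together: 33 of 34 tested antiviral genes were called higher and 1 lower, with a median change of 3.34. Rsad2, which encodes viperin, a maker of an antiviral nucleotide, had levels of 18.65, 18.68 and 18.41 on acute arrays, against 10.62, 10.36 and 10.73 on untreated arrays. The rise of 8.01 ± 0.17 (257-fold, adjusted p = 2.9e-09) stood beside that of Cmpk2, the gene of a mitochondrial nucleotide kinase, at 7.87 ± 0.14 (234-fold, adjusted p = 1.9e-09). Mx1, a gene of the Mx GTPase family, read 15.95, 16.28 and 15.96 on acute arrays, against 8.20, 8.48 and 8.14 on untreated arrays (7.79 ± 0.17, 221-fold, adjusted p = 3.1e-09). Oasl1, Mx2 and Ifit2 rose by 7.30, 7.27 and 7.27, and their groups did not overlap. The lowest rise was that of Oas1b (0.47).

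Guanylate-binding proteins and immunity-related GTPases, which attack the membranes around intracellular microbes, had 15 of 16 tested members called higher and 0 lower (median change 4.58). Gbp5 stood at 15.62, 15.83 and 16.00 on acute arrays, against 6.43, 6.72 and 7.47 on untreated arrays, a rise of 8.94 ± 0.21 (491-fold, adjusted p = 3.9e-09). Gbp4, at 12.12, 12.30 and 11.63 on acute arrays and not well above background on any untreated array, was at least 285-fold higher. Gbp2 and Tgtp2 rose by 6.61 and 6.34, whereas Gbp8 was not called (0.04). Members of these families resemble each other in sequence, so probes may share signal between them.

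Components of the receptor complex rose by about 1 on the log2 scale. Of 29 tested genes of LPS recognition and TLR signalling, 16 were higher and 4 lower (2 lower without the replicate block and 2 without replicate 3 of both groups), with a median change of 0.55. With 6 arrays and no replicate block, 9 of these genes were higher and 1 lower. Cd14 read 16.80, 16.56 and 16.73 on acute arrays, against 15.25, 15.26 and 15.45 on untreated arrays (1.38 ± 0.11, 2.60-fold, adjusted p = 1.1e-05). Tlr4 itself had 12.12, 11.74 and 11.16 on acute arrays and 11.26, 11.00 and 10.79 on untreated arrays. The Tlr4 groups overlapped, and its rise of 0.65 ± 0.13 (adjusted p = 0.0024) was not called without pairing (adjusted p = 0.092). Ly96 rose by 1.01 ± 0.14 (adjusted p = 3.4e-04), and the adaptor gene Myd88 by 1.79 ± 0.10. The call of Ly96 was lost with 6 arrays and no replicate block (adjusted p = 0.063). The largest rises of the list were in other receptors, namely Tlr3, the endosomal sensor of double-stranded RNA (3.58 ± 0.12), and the lipopeptide receptors Tlr2 (1.98 ± 0.09) and Tlr6 (1.52 ± 0.12). The adaptors Tirap, Ticam1 (TRIF) and Ticam2 (TRAM) were not called, and Tab1, a partner of the kinase TAK1, was lower (-1.45).

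NF-kB genes were higher in 10 of 11 cases, with a median change of 2.20, and this list held inhibitors as well as subunits. Nfkbie, which encodes the inhibitor IkB epsilon, read 14.10, 14.43 and 13.72 on acute arrays, against 9.66, 10.14 and 10.15 on untreated arrays (4.10 ± 0.18, 17.1-fold, adjusted p = 1.5e-07). Nfkbia, the gene of IkB alpha, rose by 2.55 ± 0.10. The subunit genes Rel, Nfkb2 and Nfkb1 rose by 3.45, 2.94 and 2.50, and Rela by 1.26. Bcl3 was not called (-0.15), and after quantile normalization 1 member of the list was called lower.

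Other transcription factor lists held both higher and lower genes, where 21.1% of all tested genes were higher and 22.3% lower. Of IRF, STAT and JAK genes, 14 of 19 were higher and 1 lower. Irf7, which amplifies interferon alpha production, had 13.48, 13.20 and 13.85 on acute arrays, against 9.11, 9.06 and 9.72 on untreated arrays (4.21 ± 0.12, adjusted p = 1.5e-08), and Irf1 rose by 4.19 ± 0.12. Irf3, which is activated by phosphorylation, was not called (-0.26). AP-1, ATF and CEBP genes had 7 of 19 members higher and 4 lower: Batf2 and Maff rose by 5.20 and 4.50, and the immediate-early genes Fos, Fosb and Jun were not called at 4 h (-0.05, 0.10 and -0.06). Fosl2 counted as lower by its brightest probe (-0.96). A dimmer probe of Fosl2 had a fitted rise of 3.30, with 1.87, 3.74 and 2.51 on untreated arrays. These probes were not both well above background on all 6 arrays, so 3.30 is not a fold. Cebpa, a factor of granulocyte and monocyte differentiation, read 7.11, 7.32 and 7.68 on acute arrays, against 10.03, 10.52 and 10.90 on untreated arrays, and was 8.66-fold lower (-3.11 ± 0.19, adjusted p = 1.3e-06). Of lineage and nuclear receptor factors, 10 of 22 were higher and 5 lower. Spi1 (PU.1) was not called (0.21), Mitf and its relative Tfec rose by 1.96 and 2.72, and Egr2 and Pparg were lower (-1.88 and -1.15).

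Feedback inhibitors rose in 13 of 27 cases and fell in 7 (4 without replicate 2 of both groups), beside 21.1% and 22.3% of all tested genes. Socs1, which blocks JAK kinases, read 14.58, 14.39 and 13.69 on acute arrays, against 8.27, 8.30 and 7.29 on untreated arrays (6.27 ± 0.13, 77.0-fold, adjusted p = 2.9e-09). Socs3, Cish and the MAP kinase phosphatase gene Dusp2 were 24.7-fold, 12.1-fold and 32.0-fold higher, and Tnfaip3, which encodes the deubiquitinase A20, by 3.36. The 3 related mRNA decay genes parted: Zfp36 (tristetraprolin) was higher (1.89), and Zfp36l1 and Zfp36l2 were lower (-3.17 and -2.40).

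**Figure D3:**
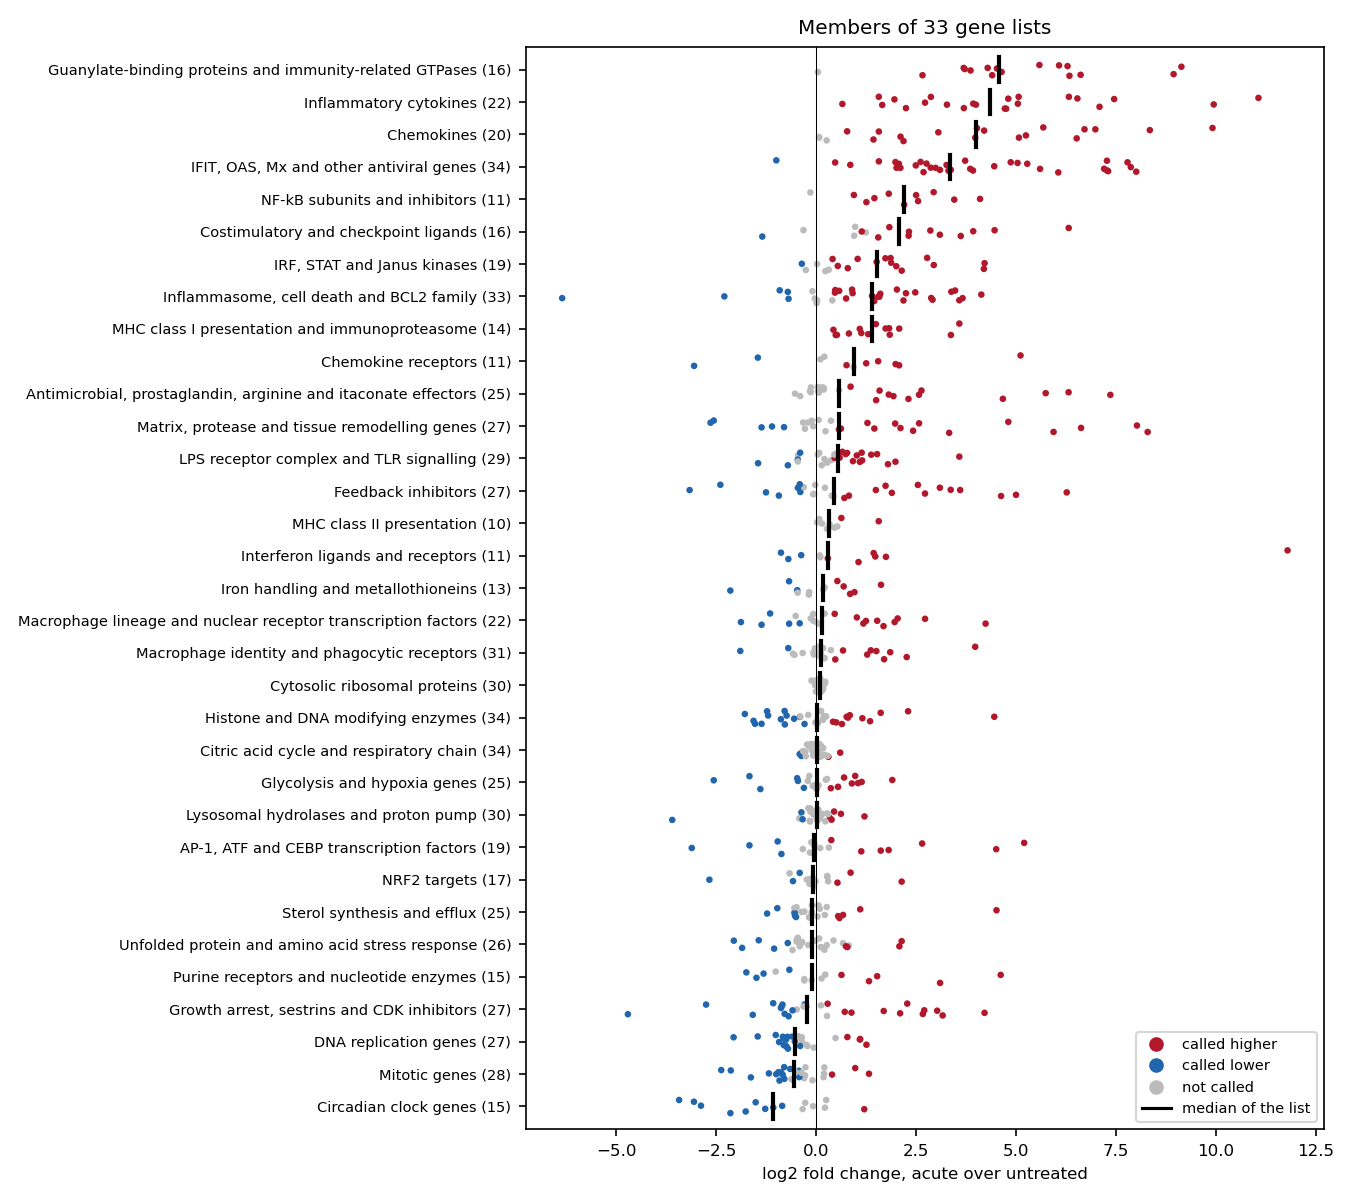
Log2 fold change of acute over untreated macrophages (x axis) of the tested members of 33 gene lists, 1 list per row with its number of tested members in brackets, ordered by median (black bar); red points were called higher, blue points lower and grey points not called. GTPases, cytokines, chemokines and antiviral genes lie at the top with medians of 4.58, 4.36, 4.00 and 3.34, and the circadian clock list at the bottom with -1.08; points of genes below background in 1 group are fitted values.

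Effector genes rose in 12 of 25 cases, with 0 lower here and 3 lower after quantile normalization. Ptgs2 (COX-2), which starts prostaglandin synthesis, had 14.73, 14.20 and 13.70 on acute arrays, against 7.80, 6.98 and 5.78 on untreated arrays (7.36 ± 0.23, 164-fold, adjusted p = 2.2e-08). Acod1, the enzyme that makes itaconate, rose by 6.31 ± 0.21, the arginine transporter gene Slc7a2, well above background on 2 of 3 untreated arrays, by 5.74 ± 0.24 and the nitric oxide synthase gene Nos2 by 4.67 ± 0.28. Of genes of the phagocyte oxidase, Cybb was 2.83-fold higher and Ncf1 and Cyba were not called (0.18 and 0.19). Hdc, which makes histamine from histidine and is best known from mast cells, was at least 152-fold higher (adjusted p = 5.0e-09), with acute levels of 11.41, 10.91 and 11.02. Of the other mast cell, basophil and eosinophil markers, Tpsb2 and Siglecf were not called (-0.02 and -0.06) and 8 of 11 were not among the genes tested. The summed level of the 3 tested was 11.08 to 11.64 on acute and 7.92 to 8.77 on untreated arrays, a sum that includes Hdc itself and follows it.

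Genes of cell death and its sensors had 23 of 33 tested members higher and 5 lower (median change 1.40). The NOD-like receptor genes Nod2, Nlrp3 and Nlrc5 rose by 4.13, 3.66 and 3.58, and Ripk2, the kinase that NOD2 recruits, by 3.38. Bmf, a BH3-only activator of apoptosis, was the member that fell the most: its levels were 2.06, 2.80 and 2.89 on acute arrays, never well above background, against 9.23, 8.74 and 8.86 on untreated arrays. Bmf was at least 28.6-fold lower (adjusted p = 1.5e-07), whereas the related Bcl2l11 (BIM) and Bbc3 (PUMA) were higher (1.60 and 0.48). Nlrp1b and Nlrc4 were lower as well (-2.30 and -0.91).

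Genes of antigen presentation by MHC class I rose together. All 14 tested genes of MHC class I presentation were higher, with a median of 1.40, led by Nlrc5, the transactivator of class I genes (3.58), and the peptide transporter gene Tap1 (3.37 ± 0.13). Of 10 class II genes 2 were called, and of these Cd74 read 14.42, 13.18 and 11.93 on acute arrays and 13.30, 12.76 and 11.57 on untreated arrays. The Cd74 groups overlapped, its experiments differed from each other by more than its groups, and its call (0.63 ± 0.21, adjusted p = 0.040) was lost without pairing (adjusted p = 0.55). Costimulatory genes were higher in 11 of 16 cases and lower in 1. Cd40, which receives T cell help, had 15.21, 14.88 and 14.96 on acute arrays, against 9.11, 8.74 and 8.24 on untreated arrays (6.32 ± 0.15, 79.7-fold, adjusted p = 4.5e-09), and Cd86 rose by 3.62 ± 0.29. Among dendritic cell markers, Zbtb46, Fscn1 and Ccl17 were higher (5.31, 2.38 and 1.43) and Kit was lower (-1.08). The 5 tested summed to 16.36 to 16.92 on acute and 16.07 to 16.82 on untreated arrays, Flt3, Xcr1, Clec9a, Itgae and Cd209a were not among the genes tested, and their part in these lists was not tested. Of macrophage surface genes 9 of 31 were higher, 2 lower (7 after quantile normalization) and 20 not called, and Clec4e (Mincle), a receptor for damage and mycobacterial glycolipids, rose by 3.98 ± 0.22 (in the authors' values 5.73, adjusted p = 0.056). Cd69, an early activation lectin, and in none of the lists, rose by 7.71 ± 0.23 (209-fold).

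Tissue remodelling genes were higher in 14 of 27 cases and lower in 5, beside 21.1% higher and 22.3% lower over all tested genes. Edn1, the vasoconstrictor endothelin, read 11.68, 11.30 and 11.72 on acute arrays and was at least 208-fold higher, and the aggrecanase gene Adamts4 was at least 77.1-fold higher. Serpinb2, the gene of an inhibitor of plasminogen activation, rose by 6.63 ± 0.61 and was well above background on 2 of 3 untreated arrays. Among genes of growth factors, Vegfa had 7.81, 7.20 and 7.09 on acute arrays, against 10.20, 10.15 and 9.44 on untreated arrays, and was 5.91-fold lower (-2.56 ± 0.20, adjusted p = 7.6e-06), and Pdgfb and Pdgfa were lower by 2.64 and 1.37 on the log2 scale. Among stromal markers Pdgfrb was at least 9.09-fold and Fbn1 at least 3.78-fold higher. The 5 tested stromal markers summed to 8.36 to 9.17 on acute and 7.06 to 7.61 on untreated arrays, 6 of 11 were not among the genes tested, Col1a1, Col3a1 and Pdgfra among them, and their part in the matrix genes was not tested.

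The falls measured on all 6 arrays were smaller than the largest rises. Fam214a, with the largest of these falls, stood at 4.69, 5.22 and 4.58 on acute arrays, against 9.67, 9.33 and 9.74 on untreated arrays, 26.9-fold lower (-4.75 ± 0.24, adjusted p = 4.8e-07). Sesn1, a sestrin that restrains the growth kinase mTORC1, read 8.64, 8.94 and 8.18 on acute arrays, against 13.35, 13.29 and 13.25 on untreated arrays. Untreated arrays lay close together and all acute arrays lay far below them (-4.71 ± 0.20, 26.2-fold lower, adjusted p = 1.4e-07). Lyl1, a helix-loop-helix factor of blood stem cells, was 21.1-fold lower, with 8.88, 9.45 and 9.44 on acute arrays, against 13.42, 13.52 and 14.03 on untreated arrays. Rab3il1, a nucleotide exchange factor of Rab GTPases, and Irf2bp2, a corepressor that partners IRF2, were 20.3-fold and 17.1-fold lower. Tfeb, which drives lysosome and autophagy genes, had 5.89, 5.78 and 6.15 on acute arrays, against 9.44, 9.53 and 9.66 on untreated arrays (-3.60 ± 0.20, 12.2-fold lower, adjusted p = 7.9e-07). In the list of 30 lysosomal genes that holds Tfeb, 5 were higher, 3 lower and 22 not called. Of these lysosomal genes 14 were lower after quantile normalization, and without the replicate block 2 were higher and 1 lower. The TEAD cofactor gene Vgll4, the glycosyltransferase genes Fut7 and B3gnt8, and E2f2 were 15.3-fold, 11.0-fold, 10.6-fold and 10.5-fold lower. Among genes no longer well above background on acute arrays, Frat1, an inhibitor of GSK3, was at least 13.4-fold lower, and the arrestin-domain gene Arrdc3 and the potassium channel gene Kcnj2 were at least 9.92-fold and 9.66-fold lower. Ypel2, Narf, 9930012K11Rik and Bbs12 followed, at least 7.15-fold to 8.34-fold lower.

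Circadian clock genes were the list with the lowest median (-1.08), with 9 of 15 tested members lower and 1 higher. Dbp, an output factor of the clock, read 9.23, 9.62 and 9.12 on acute arrays, against 12.41, 12.27 and 11.95 on untreated arrays (-2.88 ± 0.15, 7.38-fold lower, adjusted p = 5.7e-07). Its relative Tef was 4.43-fold lower, and Nr1d1 (REV-ERB alpha) and Per2 were at least 4.90-fold and 2.26-fold lower because neither was well above background on acute arrays. Clock and Arntl (BMAL1), the positive arm of the loop, were not called (0.25 and -0.08). Nfil3, a repressor of the genes that DBP activates, was the member that rose (1.20). The count of higher clock genes was 0 without the replicate block, and 0 to 2 with 1 array or 1 pair left out. Times of day of the harvests were not given in the labels.

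Genes of the cell cycle were lower more often than higher. Mitotic genes had 14 of 28 members lower and 3 higher (median -0.55), and replication genes 15 of 27 lower and 4 higher (median -0.54). With 6 arrays and no replicate block 9 genes of each list were lower. The lower mitotic genes numbered 8 without replicate 1 or replicate 3 of both groups and 9 without untreated replicate 3, and the lower replication genes 8 without acute replicate 3, 8 without untreated replicate 3 and 9 without replicate 1 of both groups. Kif23, a kinesin of cytokinesis, read 6.10, 5.79 and 5.55 on acute arrays, against 8.34, 8.02 and 8.22 on untreated arrays (-2.38 ± 0.19, adjusted p = 8.2e-06), and the phosphatase gene Cdc25b was lower by 2.14 and the replication licensing gene Cdc6, well above background on 2 of 3 acute arrays, by 2.07 on the log2 scale. Against this, the proliferation marker Mki67 rose by 1.32 ± 0.12 and Pcna by 1.10 ± 0.16. In the growth arrest list 11 of 27 genes were higher and 11 lower. The lower count was 5 without the replicate block, 5 without replicate 2 of both groups, and 7 without acute replicate 3, without untreated replicate 1 or without replicate 3 of both groups. Cyclins were among both the higher and the lower genes: Ccnd2 rose by 4.21 ± 0.22 and Ccne1 by 2.10, and Ccnd1 fell by 0.87. Cdkn1a (p21) rose by 2.70 and Gadd45b by 2.67, and Gadd45a fell by 2.76.

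Metabolic lists had medians close to that of all genes. Of 34 genes of the citric acid cycle and respiratory chain, 2 were higher and 2 lower, with changes between -0.41 and 0.60. Without the replicate block 0 genes of this list were called in either direction, and after quantile normalization 0 were higher and 19 lower, so these calls depend on the setting. Of 25 glycolysis and hypoxia genes, 8 were higher and 6 lower, against 4 higher and 2 lower without the replicate block and 5 higher and 11 lower after quantile normalization. With 1 array or 1 pair left out, 3 to 6 glycolysis and hypoxia genes were lower, with 3 in 6 of these settings: without acute replicate 2, untreated replicate 1, untreated replicate 3, or any 1 pair. Pfkp, a phosphofructokinase, rose by 1.90 ± 0.13, hexokinase genes Hk1, Hk2 and Hk3 rose by 1.14, 1.04 and 0.97, and Pfkfb4 fell by 1.67. Gapdh, Ldha and Pkm were not called (0.01, 0.06 and -0.08). Cytosolic ribosomal protein genes were called in 0 of 30 cases by limma here (0 at an unadjusted p under 0.05) and were lower in 8 cases after quantile normalization. Ch25h, which makes the antiviral oxysterol 25-hydroxycholesterol, rose by 4.51 ± 0.24. Sterol synthesis genes were higher in 5 and lower in 6 of 25 cases, Ch25h included, close to 21.1% and 22.3% of all tested genes. For this sterol list the counts were 2 higher and 3 lower without the replicate block, 1 higher and 3 lower without replicate 1 of both groups, and 10 lower in the authors' values. Its higher count was 2 after median centring, 2 without acute replicate 2, 2 without untreated replicate 3, 2 without replicate 2 of both groups and 3 without acute replicate 1. Slc40a1, the iron exporter ferroportin, was 4.43-fold lower, and the adenosine receptor gene Adora2a and the purine salvage gene Pnp were 24.5-fold and 8.56-fold higher, beside the nucleotide receptors P2ry6 and P2rx7, which were 3.36-fold and 2.82-fold lower.

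The stress gene Trib3 differed by more between experiments than between groups. Trib3, a pseudokinase induced by the amino acid response, had 12.17, 11.59 and 8.22 on acute arrays and 14.63, 13.33 and 10.21 on untreated arrays. Levels in both groups were lowest in experiment 3 and the groups overlapped, while within each experiment the acute array was lower (-2.06 ± 0.73, adjusted p = 0.047). The call of Trib3 was lost without the replicate block (adjusted p = 0.203), and also in fits such as those without untreated replicate 1 (adjusted p = 0.199) and without acute replicate 3 (adjusted p = 0.201). The transcription factor gene Ddit3 (CHOP) was lower by 1.85 ± 0.28, with 9.58, 9.16 and 9.07 on acute arrays, against 11.96, 11.22 and 10.20 on untreated arrays, and its groups did not overlap. Slc7a11, the cystine transporter, and Ppp1r15a (GADD34) rose by 2.14 ± 0.34 and 2.08 ± 0.17. Among NRF2 targets 3 of 17 were higher and 3 lower (1 lower without the replicate block and 1 without replicate 1 of both groups), and Hmox1 and Nqo1 were not called (-0.17 and -0.14).

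Enzymes that modify histones and DNA were higher in 11 and lower in 13 of 34 cases, counted on the brightest probe of each gene. Kdm5b counted as lower (-1.57) and Ehmt1 as higher (1.61), while another probe of each moved by 2.59 and -0.78. With the mean of the probes Ehmt1 was not called (0.415, adjusted p = 0.105). Setdb2, a methyltransferase of histone H3, read 14.07, 14.09 and 13.31 on acute arrays, against 9.49, 9.55 and 9.07 on untreated arrays (4.45 ± 0.11, 21.9-fold, adjusted p = 5.0e-09). The deacetylase gene Sirt1 rose by 2.30 ± 0.22 and the 5-methylcytosine oxidase gene Tet2 by 1.35, while the demethylase gene Kdm2b and the DNA methyltransferase genes Dnmt1 and Dnmt3a fell by 1.79, 1.23 and 1.20.

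For some genes the probes did not report 1 change. Of 7592 probe pairs in 5346 genes with several probes, 1238 (16.3%) differed in their change, and 83 genes had probes called in opposite directions, 67 of them with both probes measured on all 6 arrays. At Kdm5b, a histone demethylase gene on chromosome 1, a probe at 136527740 to 136527799 (mm9) read 10.17, 10.42 and 9.96 on acute arrays, against 7.41, 7.65 and 7.71 on untreated arrays. The brighter probe, which stands for the gene elsewhere, lies 306 bases away at 136528046 to 136528105 on the same strand and read 9.64, 9.55 and 9.16 on acute arrays, against 11.45, 10.69 and 10.91 on untreated arrays. The 2 Kdm5b probes thus moved by 2.59 and -1.57, a difference of 4.16 ± 0.29 (adjusted p = 6.6e-05). At Cd80, a ligand of CD28, probes 7429 bases apart moved by 1.83 and -1.35, and the count of costimulatory genes above uses the falling one. At Itga6, the probe that stands for the gene rose by 2.28 and another 4123 bases away fell by 1.02. In Madd and Brat1 the probe that stands for the gene rose by 1.28 and 1.32 and another fell by 1.78 and 1.67. In Zfp975 the rise of 2.29 is that of its brightest probe, which stands for the gene. Other probes of Zfp975, all dimmer, fell by 0.81, 0.74, 0.69 and 0.62. Whether different transcripts account for these pairs was not tested.

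Falls made up a smaller share of the calls at long non-coding loci than at named genes. Of 2752 lincRNA loci 555 were higher (20.2%) and 256 lower (9.30%), against 21.8% and 27.2% of 14265 genes with a reference symbol. The reverse-strand probe at the locus named chr16:84702353-84710928 (mm9) had the largest rise among lincRNA loci measured on all 6 arrays, with 10.88, 11.33 and 11.76 on acute arrays, against 5.04, 5.66 and 6.15 on untreated arrays (5.70 ± 0.20, 52.2-fold). Of 554 risen loci with a neighbour, the nearest reference gene was higher in 223 (40.3%) and lower in 105 (19.0%), whereas of 254 fallen loci it was higher in 34 (13.4%) and lower in 119 (46.9%). The same shares beside 1925 loci that were not called were 22.2% and 24.6%. Some of these loci are opposite strands or overlapping stretches of the same locus and can share a nearest gene. They were each counted, so the counts are not of independent pairs. At some loci the neighbour went the other way: the reverse-strand probe at chr10:69669025-69686275 rose by 5.53 ± 0.15 and the nearest gene, Mrln, was lower (-0.96), though well above background on 1 of 3 acute arrays.

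Many of the large rises were of measured features next to each other on a chromosome. Of 20314 genes with a probe position, 860 were called with a rise of at least 2 on the log2 scale. Of these, 298 (34.7%) had a direct neighbour among measured genes that did the same, in 105 runs of which 16 held at least 4 genes. Of 351 genes with a probe position called with a fall of at least 2, 44 (12.5%) had such a neighbour, in 20 runs of at most 3 genes. Positions are those of the probes in the array files (mm9), no test was made, and neighbours in these families are often near copies that can share hybridisation signal. Some neighbours are opposite strands of 1 lincRNA locus, or may be 1 locus under several names, such as Adamts4 and a transcript without a symbol beside it. The shares were not adjusted for this or for the smaller number of falls. The longest run held 20 measured features on chromosome 1, from 175626288 to 175973019, with a median change of 3.28. Of these features 7 had a reference symbol and 6 were lincRNA loci, with Ifi204, Ifi203 and Mndal of the interferon-inducible p200 family in the run. Beside it, 8 features from Aim2, the sensor of cytosolic DNA, to Ifi209 had a median of 5.64. Other runs were the Slfn genes on chromosome 11 (7 features, median 3.96), the Phf11 genes with Setdb2 on chromosome 14 (6 features, 4.59), 4 monocyte chemokine genes from Ccl2 to Ccl8 on chromosome 11 (5.79), the Ifit genes on chromosome 19 (4 genes, 6.86) and the Gbp5 to Gbp2 genes on chromosome 3 (4 genes, 6.45). In the run of Rnd3, Rbm43, Nmi and Tnfaip6 on chromosome 2 the neighbours belong to no common family, and they rose by 2.85, 2.31, 2.41 and at least 15.8-fold.

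**Figure D4:**
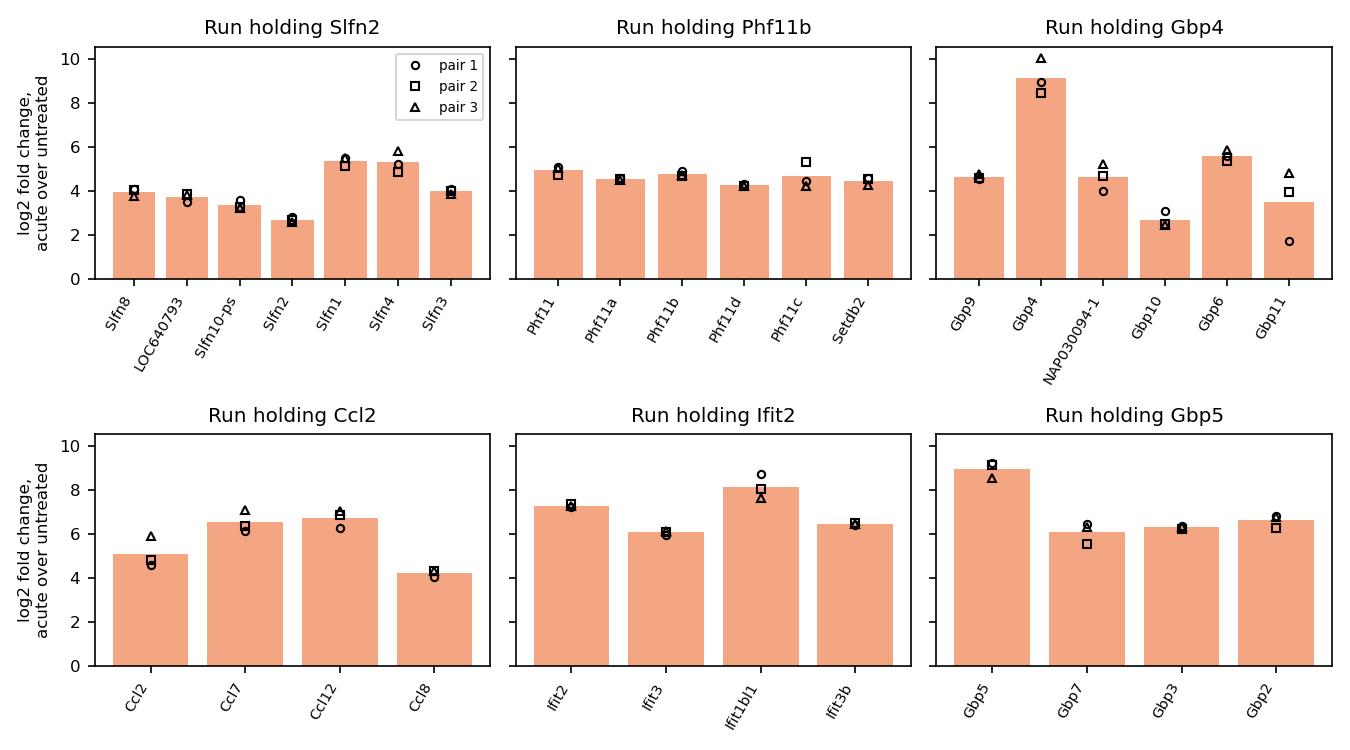
Log2 fold change of acute over untreated macrophages (y axis) of the genes in 6 runs of neighbours, in chromosomal order (x axis); bars are the change over 3 experiments and symbols the change in each experiment. Every bar is above 2, and in the Phf11 run the 6 changes lie between 4.25 and 4.95; bars of genes below background on untreated arrays, such as Gbp4 and Ifit1bl1, are fitted values.

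Promoter windows from 250 bases before to 50 after the transcript start were available for 11035 of the 14265 tested genes with a reference symbol. The search covered both strands for the NF-kB consensus, ISRE (GAAANNGAAA), AP-1 (TGANTCA), CRE (TGACGTCA) and the hexamer TATAAA. Matches of NF-kB and ISRE shared bases in 2 of the 60 windows that held both, among 32851 windows. An ISRE match was present in 46 of 236 genes called at least 8-fold higher (19.5%), in 0 of 57 called at least 8-fold lower, in 3.9% of all tested genes and in 4.0% of all promoters. An NF-kB match was present in 33 of the 236 and 2 of the 57 genes, in 6.2% of all tested genes and in 5.1% of all promoters, and an AP-1 match in 37 and 4 of them, in 6.8% and in 9.0%. A CRE match was present in 1.7% of the genes higher, 1.8% of those lower and 3.4% of all tested, and TATA was present in 18.6%, 12.3% and 10.1%. Over all promoters these shares were 2.0% for CRE and 15.7% for TATA. The median number of CG dinucleotides per window was 9 in the genes higher, 20 in those lower, 21 in all tested and 8 in all promoters.

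**Figure D5:**
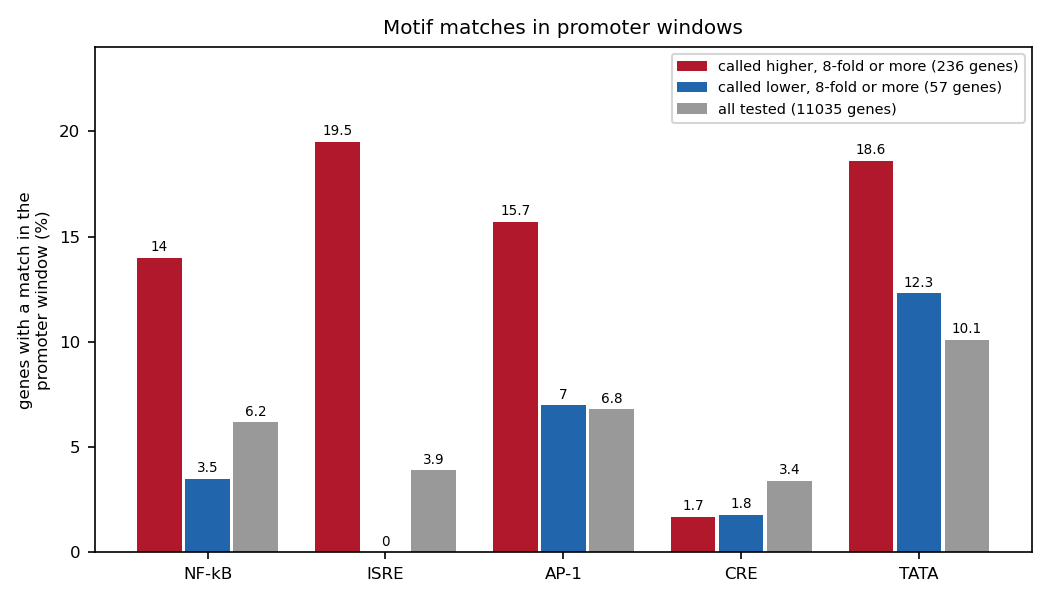
Share of genes with at least 1 match in the promoter window (y axis, percent) for 5 motifs, in genes called at least 8-fold higher (red, 236 genes), genes called at least 8-fold lower (blue, 57 genes) and all tested genes (grey, 11035 genes). The ISRE bars stand at 19.5%, 0% and 3.9%; the plot is a description with no test.

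Read the other way, 39.4% of 396 genes with an ISRE match alone were called higher and 19.4% lower, against 20.6% and 29.1% of 9954 genes with neither match. With an NF-kB match alone these were 28.4% and 26.1% of 648 genes, and with both 16 of 37 genes were higher and 4 lower. Cxcl10 and Gbp5, whose sequences were given first, and B2m, Bst2 and Fcgr4 were among the genes with both matches. By list, the ISRE match was found in 9 of 9 GTPase genes with a window and in 11 of 23 antiviral genes, Rsad2 and Isg15 among them, but in 1 of 16 inflammatory cytokine genes. The NF-kB match was found in 6 of 8 genes of the NF-kB list, Nfkbia, Nfkbie, Nfkb2 and Rel among them, and in 5 of 13 chemokine genes, Cxcl1, Cxcl2, Cxcl3 and Cxcl10 among them. Bmf, at least 28.6-fold lower, holds an NF-kB match in 1 of its windows, and Bcl3, which was not called, holds one too.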

How the data were processed

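One array was made from each of 12 cultures of macrophages grown from bone marrow, with Cy3 as the 1 dye, of which the 3 acute and 3 untreated arrays are compared here. Per the file headers, the authors' scanner files hold a processed intensity per spot, made by Agilent Feature Extraction 10.7.3.1 with its background subtraction, and probe positions in mm9. The deposited series table holds the authors' log2 values of the same arrays, and 0 of its columns were left unused. The submitters' processing notes name limma, and the normalization between arrays is not given in the sources used here.

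Control spots and outlier spots were left out, each array was divided by the 75th percentile of its processed intensity, log2 was taken, and spots of 1 probe were averaged. Probes well above background on every array of at least 1 group were kept (28056 probes). The brightest probe stood for each of 20464 genes, named through RefSeq accession, symbol or synonym where matched (26535, 3917 and 805 of 55681 probes). limma 3.58.1 (R 4.3.3) was fitted to all 12 arrays with replicate number as a block, so that all groups share 1 estimate of the spread, and p-values were adjusted by Benjamini-Hochberg over all genes; other steps used Python 3.11.15 with pandas 2.3.3, numpy 2.4.6 and matplotlib 3.10.9. The pairing comes from the replicate numbers of the titles: deviations from the group means correlated at 0.67, 0.40 and 0.77 between arrays of the same number, and at -0.65 to 0.20 between arrays of different numbers. Acute and untreated arrays of the same number also shared a slide, so experiment and slide cannot be told apart in these correlations. The fit was tested on simulated data. Tolerant and recovered arrays served for the spread, the filter on probes and the choice of the brightest probe. With probes kept by the acute or untreated group alone, 20058 genes were tested and 8884 called. The number of arrays limits the precision.

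The gene lists, the markers and the rules were chosen with earlier results of these data known. By the rule for named genes, the text names the 12 largest rises and falls measured on all 6 arrays, the 8 largest bounds each way, up to 4 called members of each list with the largest change, the 6 genes with a reference symbol whose probes, called in opposite directions and measured on all 6 arrays, differed most, members of runs of neighbours, Cd14, Tlr4, Ly96 and Csf1r, and the lincRNA loci with the largest changes measured on all 6 arrays. Not every gene so chosen is described, some are not reported here, and other list members named in the text were picked after their values were seen. The alternatives tried were other blocks, sets of arrays, scalings, background corrections and filters, the mean of probes, and leaving out each array or pair.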

Additional observations from a re-analysis of the deposited data

How the results depend on the processing

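Without the replicate block, which the pairing by experiment provides, 5996 genes were called (2929 higher and 3067 lower), against 8896 with it (4327 higher and 4569 lower), and all 5996 kept their direction. With the 6 acute and untreated arrays alone and no replicate block, 4925 genes were called, of which 2439 were higher and 2486 lower. With 1 array or 1 pair left out, the calls ranged from 6536 to 9148, with 3111 to 4509 higher and 3425 to 4639 lower. Quantile normalization called 10364 genes (3857 higher and 6507 lower) and the authors' values called 10174 (3842 higher and 6332 lower), with the median gene at -0.12 and -0.09, against 0.02. Median centring moved that median to -0.07 and called 8894 genes (3636 higher and 5258 lower). Over 155 genes named by rule, calls were lost for 11 without the block, 15 with 6 arrays and no block, 6 after quantile normalization and 10 in the authors' values. Csf1r, not called, ranged from -0.148 to 0.051 with arrays left out, turning positive without untreated replicate 3 (0.051) and without replicate 3 of both groups (0.001). The call of Ifng was lost in 12 of the settings tried and that of Cd74 in 16. Causes of these shifts were not tested. Low signal limits genes not well above background in 1 group to a bound: 240 genes called higher and 175 called lower.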
